A study of Rattus norvegicus with 34 samples.

Results

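A set of 48 genes of fatty acid uptake, activation, oxidation and triglyceride storage was followed in rat left ventricle (LV) and peripheral blood mononuclear cells (PBMCs) after myocardial infarction. The genes were chosen by name, with earlier results of these data known, so that their counts are no unbiased sample of the pathway. A gene's value is that of the transcript cluster, the array's unit for a gene, which carries its symbol alone. Where 2 clusters carried the symbol (Cd36 and Hadha), the one with the higher mean was taken. In this way 46 of the 48 genes were measured, among 29214 transcript clusters of which 15310 carry 1 symbol. Decr2 and Acaa1a lie only on clusters shared with another gene, Nme4 and Acaa1b, and have no value here.

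Fatty acids are the main fuel of the adult heart. They enter the cardiomyocyte, are activated to acyl-CoA, pass into mitochondria as carnitine esters and are shortened in repeated turns of beta-oxidation, whose electrons reach the respiratory chain through electron transfer flavoproteins. Peroxisomes handle chains that mitochondria do not take, and triglyceride droplets hold the surplus. PBMCs, mainly lymphocytes and monocytes, also oxidize fatty acids.

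The arrays are Affymetrix Rat Gene 1.0 ST, hybridized 2 months after surgery with RNA of male Wistar rats. The left coronary artery was ligated near its origin, which left a small (S-MI), moderate (M-MI) or large (L-MI) infarct, whereas in sham rats the suture was not tied. In LV there are 6 sham, 6 S-MI, 6 M-MI and 5 L-MI arrays, and in PBMCs 5 L-MI and 6 sham arrays. No other treatment or genotype is given, and age is not given in the labels. The whole LV was taken from sham rats and the part free of visible scar from infarcted rats, so that infarct and dissection cannot be told apart against sham. The infarct groups share the rule of dissection, but the region left free of scar can differ with infarct size. For L-MI replicate 1, in both tissues, the description names a compensated LV, whereas the title and the infarct size name a large infarct, and the array was kept in L-MI.

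All values are log2 signals after robust multiarray averaging. The median of an array was 6.52 to 6.61 log2 units in LV, whereas PBMC arrays had medians of 6.97 to 7.01, and levels are therefore not compared between tissues. In sham LV the 16 cardiomyocyte markers measured had log2 signals of 11.3 to 13.8, and in sham PBMCs the 7 T cell markers had 10.97 to 12.4 and the 3 B cell markers 10.3 to 12.7. The 3 platelet markers (11.51 to 13.17) and 3 erythroid markers (10.73 to 13.48) were as high in sham PBMCs. The mean deviation of the erythroid markers from their PBMC means ran from -1.73 to 0.70 in sham and from -1.78 to 1.33 in L-MI arrays. The part of these cells in the PBMC values was not tested. On the first principal component of the LV arrays, 4 arrays (replicates 4 and 6 of sham, replicates 4 and 5 of S-MI) had values of -138 to -112, apart from the next array (-52.0), and at the other end L-MI replicate 4 (165.2) stood apart from the next array (64.8). In bulk tissue, fewer cells of a type and less RNA per cell cannot be told apart, and the number of arrays limits the precision.

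In LV of L-MI rats genes of most steps of fatty acid oxidation fell in comparison with the sham group. Of the 46 genes 22 fell and 1, the uncoupling protein gene Ucp2, rose, where a call needed a change of 1.3-fold or more with limma's p, adjusted by Benjamini-Hochberg, at or under 0.05. Of all transcript clusters 3.22% were called, 1.14% as lower and 2.08% as higher. The median log2 fold change was -0.38 over the 46 genes and -0.01 over all clusters, and 41 of the 46 values were negative, against 52% of all clusters. Without the fold threshold 35 of the genes passed as lower and 1 as higher, against 4.91% and 4.57% of all clusters. Under the first rule 21 genes fell and 1 rose without the 4 arrays that stood apart (0.917% and 2.09% of all clusters), and 21 fell and 1 rose without L-MI replicate 4 (0.869% and 2.03%). For 33 genes all 5 L-MI arrays lay below all 6 sham arrays, which held for 3.87% of all clusters. For 0 genes did they all lie above (3.1% of all clusters). By role, all 3 auxiliary enzymes, 6 of 8 carnitine genes, 6 of 9 enzymes of the spiral and 3 of 5 genes of the triglyceride store fell. None of the 4 entry genes or the 3 electron transfer genes passed the fold threshold.

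**Figure D1:**
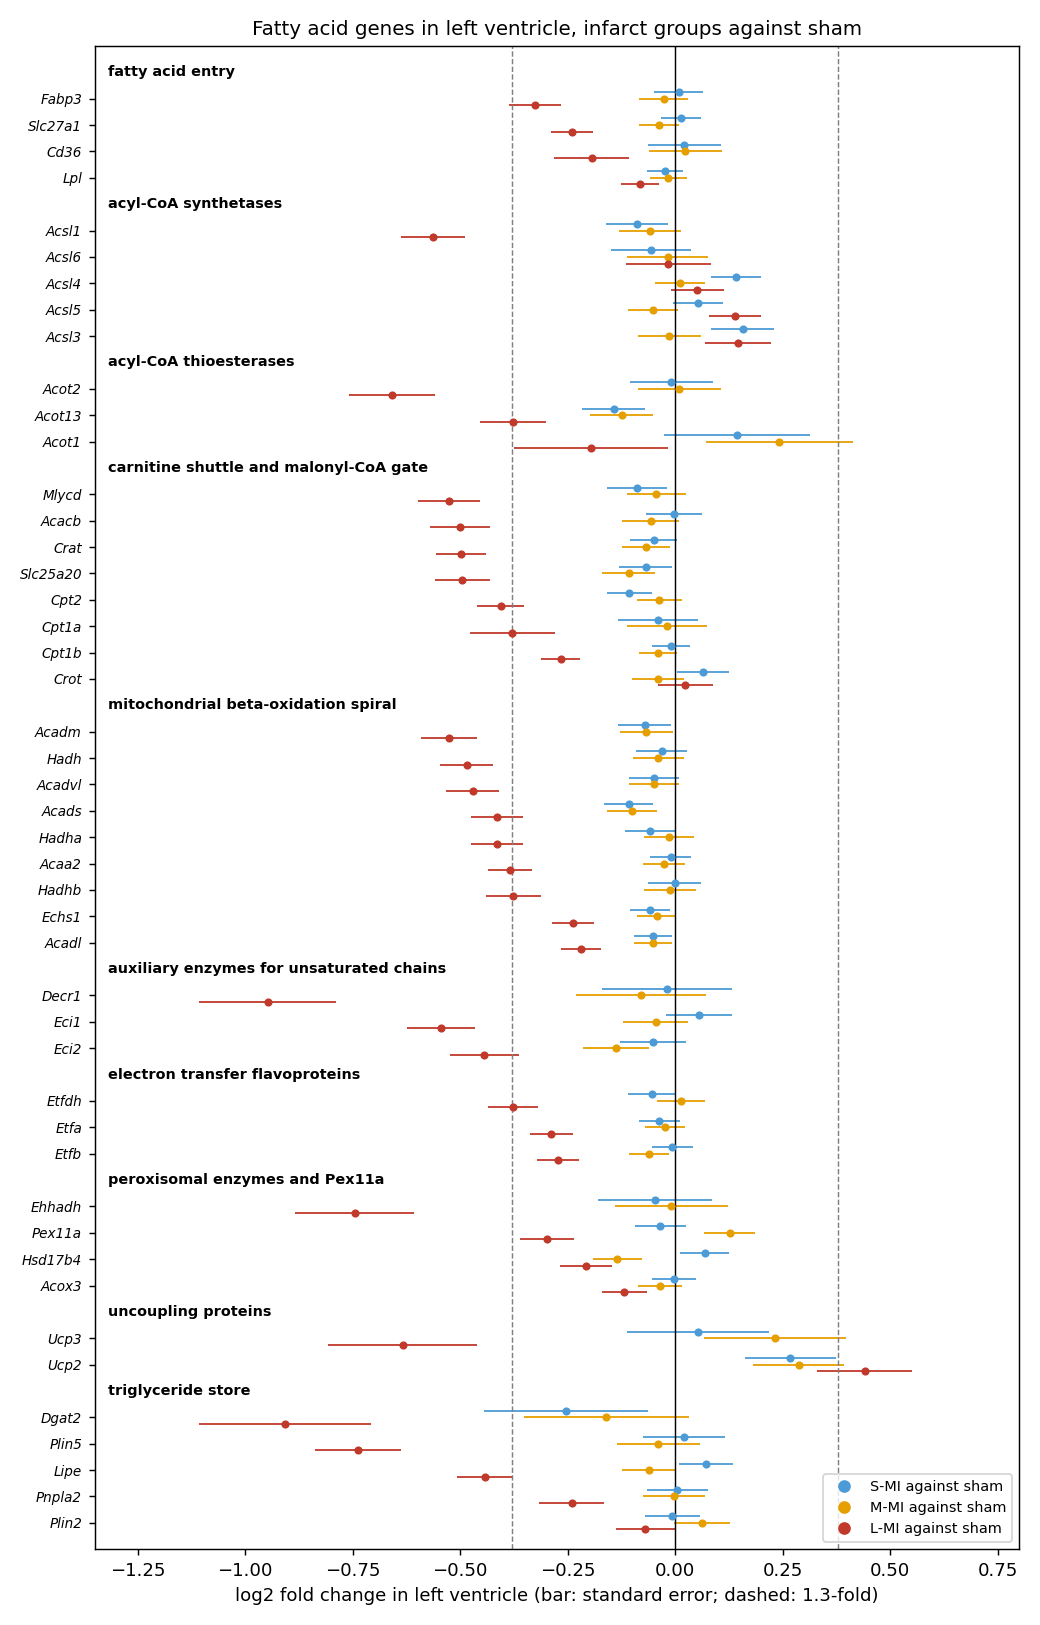
Log2 fold change of the 46 genes in LV for S-MI, M-MI and L-MI against sham (x axis), with genes in rows grouped by role. Points are fitted values, bars the standard error and dashed lines 1.3-fold. L-MI values reach -0.95 (Decr1), whereas all S-MI and M-MI values lie between -0.25 and 0.29.

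None of the 4 entry genes reached the fold threshold, although all had negative values. Fabp3, the fatty acid binding protein of heart muscle, had log2 signals of 12.52, 12.58, 12.32, 12.34 and 12.37 in the 5 L-MI arrays, against 12.68, 12.76 and 12.80 (lowest, median and highest) in the 6 sham arrays. All L-MI arrays were below all sham arrays, and the log2 fold change of -0.33 (adjusted p = 0.000845, SE 0.06) passed the p but not the fold threshold. The transporter Slc27a1 gave a log2 fold change of -0.24 (adjusted p = 0.00190, SE 0.05), also without overlap. Cd36, the membrane receptor that takes up long-chain fatty acids, had log2 signals of 11.85, 12.21, 11.80, 11.91 and 11.75 in L-MI, against 11.92, 12.12 and 12.23 in sham. Here the groups overlapped, through L-MI replicate 2, and the log2 fold change was -0.19 (adjusted p = 0.198, SE 0.09). Lpl, the lipase that frees fatty acids from lipoproteins, was at -0.08 (adjusted p = 0.301, SE 0.04) on the same scale, with a 95% interval of -0.17 to 0.01.

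Of the 5 acyl-CoA synthetases, which activate fatty acids, 1 fell. Acsl1, the major isoform of heart muscle, had log2 signals of 11.35, 11.55, 11.21, 11.21 and 11.22 in L-MI, against 11.84, 11.88 and 11.90 in sham. The sham arrays lay close together, and every L-MI array was below them. The log2 fold change was -0.56 (adjusted p = 3.71e-05, SE 0.08). The other isoforms were at -0.02 (Acsl6), 0.05 (Acsl4), 0.14 (Acsl5) and 0.15 (Acsl3) on this scale and did not pass (limma adjusted p 0.171 to 0.956). The difference between Acsl1 and its isoforms was not tested.

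Thioesterases release the fatty acid from acyl-CoA again. The mitochondrial Acot2 had log2 signals of 10.88, 11.24, 10.60, 10.93 and 10.85 in L-MI, against 11.43, 11.56 and 11.66 in sham, with no overlap. This was a log2 fold change of -0.66 (adjusted p = 0.000138, SE 0.10). Acot13 gave -0.38 (adjusted p = 0.00192, SE 0.08) on this scale, just short of the fold threshold, with no overlap between the groups, and was called, at -0.42 to -0.38, when 1 array was left out (sham replicate 1, 4, 5 or 6 or L-MI replicate 1, 2, 3 or 5). The cytosolic Acot1, a close relative encoded 24434 bases from Acot2 (start to start, rat build GRCr8), had low signals, 3.81, 3.94, 3.68, 3.35 and 3.05 in L-MI, against 3.49, 3.70 and 4.10 in sham. These overlapped, and its log2 fold change was -0.20 (adjusted p = 0.593, SE 0.18). Whether probes of the closely related genes cross-hybridize was not tested.

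The carnitine shuttle carries acyl groups across the mitochondrial membranes, and malonyl-CoA, made by Acacb and removed by Mlycd, holds back its entry step. The transferase gene Crat, which moves acetyl groups onto carnitine, had log2 signals of 11.59, 11.69, 11.51, 11.53 and 11.45 in L-MI, against 11.97, 12.05 and 12.12 in sham. It had the smallest adjusted p of the 46 genes, with a log2 fold change of -0.50 (adjusted p = 8.44e-06, SE 0.06) and a 95% interval of -0.62 to -0.38. Slc25a20, the translocase of the inner membrane, had 10.15, 10.30, 10.09, 10.06 and 10.12 in L-MI, against 10.59, 10.63 and 10.69 in sham, as log2 signals. A log2 fold change of -0.49 (adjusted p = 3.21e-05, SE 0.07) was found. Cpt2, which rebuilds acyl-CoA inside, had log2 signals of 11.42, 11.60, 11.39, 11.21 and 11.34 in L-MI, against 11.72, 11.81 and 11.84 in sham. Every L-MI array of these 3 genes was below every sham array. The log2 fold change of Cpt2 was -0.41 (adjusted p = 4.37e-05, SE 0.06), and -0.36, under the fold threshold, without L-MI replicate 4.

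The enzyme pair around malonyl-CoA fell together. Acacb had log2 signals of 9.67, 9.83, 9.62, 9.33 and 9.57 in L-MI, against 10.05, 10.10 and 10.19 in sham, and a log2 fold change of -0.50 (adjusted p = 5.07e-05, SE 0.07). Mlycd had log2 signals of 8.58, 8.63, 8.61, 8.68 and 8.68 in L-MI, against 8.9998, 9.18 and 9.28 in sham, and a log2 fold change of -0.53 (adjusted p = 5.07e-05, SE 0.07). In both, the groups were apart. The gate itself, carnitine palmitoyltransferase, has a muscle form, Cpt1b, and a liver form, Cpt1a. Cpt1b had log2 signals of 12.04, 12.14, 11.95, 12.06 and 12.03 in L-MI, against 12.23, 12.32 and 12.35 in sham, without overlap, and its log2 fold change of -0.27 (adjusted p = 0.000395, SE 0.05) stayed under the fold threshold. Cpt1a had 9.37, 9.08, 9.44, 9.08 and 9.40 in L-MI, against 9.44, 9.66 and 9.87 in sham, as log2 signals, and the groups met at 9.44. Its log2 fold change of -0.38 (adjusted p = 0.0145, SE 0.10) lay at the threshold, and the call was lost without sham replicate 1 (-0.37), 3 (-0.36) or 6 (-0.34), without L-MI replicate 2 (-0.33) or 4 (-0.33) and without the 4 arrays that stood apart (-0.35). Crot, the octanoyltransferase of peroxisomes, was at 0.02 (adjusted p = 0.886, SE 0.06) on the log2 fold change scale, and at -0.01 with each array centred on its median.

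Within the mitochondrial spiral the values of the 9 enzymes lay between -0.53 and -0.22 as log2 fold changes, and in all 9 the L-MI arrays were below the sham arrays. The acyl-CoA dehydrogenases open each turn and divide the chains by length. Acadm, for medium chains, had log2 signals of 11.42, 11.64, 11.38, 11.38 and 11.28 in L-MI, against 11.83, 11.94 and 12.08 in sham, and a log2 fold change of -0.53 (adjusted p = 1.55e-05, SE 0.06). Acadvl, for very long chains, had 11.14, 11.37, 11.08, 11.05 and 11.11 in L-MI, against 11.57, 11.63 and 11.65 in sham, as log2 signals, and a log2 fold change of -0.47 (adjusted p = 2.95e-05, SE 0.06). Acads, for short chains, had 10.20, 10.53, 10.32, 10.36 and 10.38 in L-MI, against 10.69, 10.74 and 10.89 in sham, as log2 signals. Its log2 fold change was -0.41 (adjusted p = 9.15e-05, SE 0.06), and the call was lost without L-MI replicate 1 (-0.3753) and without the 4 arrays that stood apart (-0.36). Acadl, for long chains, had the smallest shift of the spiral, -0.22 (adjusted p = 0.00283, SE 0.05) on the log2 fold change scale, and was not called.

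The later steps of the turn fell in part. Hadh, the dehydrogenase for shorter chains, had log2 signals of 11.91, 12.14, 11.71, 11.88 and 11.76 in L-MI, against 12.33, 12.37 and 12.41 in sham, and a log2 fold change of -0.49 (adjusted p = 2.31e-05, SE 0.06). Hadha and Hadhb encode the subunits of the trifunctional protein, which carries out the last steps for long chains. Hadha had 11.91, 12.07, 11.91, 11.79 and 11.73 in L-MI, against 12.23, 12.29 and 12.37 in sham, as log2 signals, and a log2 fold change of -0.41 (adjusted p = 0.000101, SE 0.06), or -0.3778 without L-MI replicate 5, just under the threshold. Hadhb gave -0.38 (adjusted p = 0.000395, SE 0.06) on this scale and missed the fold threshold, which it passed without sham replicate 4 or L-MI replicate 2 or 4 (-0.42 to -0.39). The subunits thus lie on either side of the threshold, and their difference was not tested. The thiolase Acaa2 had log2 signals of 12.59, 12.77, 12.52, 12.65 and 12.59 in L-MI, against 12.93, 13.02 and 13.11 in sham. Its log2 fold change of -0.38 (adjusted p = 3.45e-05, SE 0.05) fell under the threshold without sham replicate 6 (-0.36), without L-MI replicate 1 (-0.38), 3 (-0.36) or 5 (-0.37) and without the 4 arrays that stood apart (-0.38). The hydratase Echs1 was at -0.24 (adjusted p = 0.00194, SE 0.05) and was not called.

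Promoter sequences are shown for Acadvl and Hadhb, which with Echs1 are the members of the spiral whose windows hold a nuclear receptor motif. AGGTCA is the core motif bound by nuclear receptors such as the PPARs, and was searched on both strands in windows of 300 bases (250 before and 50 after the start site), taken from RefSeq on build GRCr8. It occurs in 10 of the 39 measured members with a window (25.6%), in 6 of the 18 called lower in L-MI, and in 15.7% of 27457 windows of all genes. Acaa2, Lpl, Lipe, Acadl, Decr1, Dgat2 and Cpt1b have no window here. The longer AAGGTCA, which contains it, occurs in 2 of 39 (5.13%, against 4.37% of all windows), and the direct repeat AGGNCANAGGNCA in 0 of 39 (against 0.412%). Hadhb and Hadha start 301 bases apart on opposite strands, so that their windows overlap, and 1 of these is printed. Capitals mark AGGTCA or its reverse complement, at 169 and 17 bases before the start of Acadvl and 42 bases after that of Hadhb. Start sites are those of the first window listed for a gene. Acadvl, Hadhb and Acot2 are annotated to begin further upstream (chr10:55236786, chr6:31907557 and chr6:109341426), so that these distances depend on the start chosen. The Acadvl window is chr10:55236656-55236955 (minus strand) and the Hadhb window chr6:31907451-31907750 (minus strand). A match describes letters and not a bound site.
Acadvl: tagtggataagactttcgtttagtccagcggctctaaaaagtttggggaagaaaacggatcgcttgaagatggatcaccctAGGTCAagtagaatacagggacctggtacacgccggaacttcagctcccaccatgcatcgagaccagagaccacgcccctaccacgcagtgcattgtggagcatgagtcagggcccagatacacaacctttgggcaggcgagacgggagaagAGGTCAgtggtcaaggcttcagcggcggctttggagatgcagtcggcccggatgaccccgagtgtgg
Hadhb: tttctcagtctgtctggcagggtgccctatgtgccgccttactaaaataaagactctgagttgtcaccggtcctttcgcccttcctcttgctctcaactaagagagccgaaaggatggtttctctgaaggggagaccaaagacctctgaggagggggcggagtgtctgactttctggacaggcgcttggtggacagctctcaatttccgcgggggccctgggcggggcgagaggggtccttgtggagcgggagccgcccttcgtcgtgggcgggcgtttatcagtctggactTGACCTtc

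The auxiliary enzymes, which prepare unsaturated chains for the spiral, all fell. Decr1, the reductase for dienoyl chains, had log2 signals of 8.53, 8.90, 8.22, 8.64 and 8.24 in L-MI, against 9.14, 9.44 and 9.80 in sham. The groups were apart, and its log2 fold change of -0.95 (adjusted p = 0.000341, SE 0.16), with a 95% interval of -1.28 to -0.62, was the largest of the 46. The isomerase Eci1 had 11.45, 11.66, 11.42, 11.34 and 11.29 in L-MI, against 11.92, 11.97 and 12.04 in sham, as log2 signals, and a log2 fold change of -0.55 (adjusted p = 9.05e-05, SE 0.08). Eci2, its relative, gave -0.44 (adjusted p = 0.000692, SE 0.08) on this scale, with no overlap.

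None of the electron transfer flavoprotein genes was called. Etfa and Etfb, its subunits, gave log2 fold changes of -0.29 (adjusted p = 0.000439, SE 0.05) and -0.27 (adjusted p = 0.000752, SE 0.05). Etfdh, which hands the electrons on to ubiquinone, had log2 signals of 10.79, 11.06, 10.80, 10.79 and 10.76 in L-MI, against 11.18, 11.21 and 11.27 in sham. L-MI replicate 2 was far above the other L-MI arrays but still below all sham arrays, and the log2 fold change was -0.38 (adjusted p = 0.000150, SE 0.06). In all 3 the groups were apart. Etfdh reached the fold threshold without sham replicate 1, 4 or 5 or L-MI replicate 2 (-0.43 to -0.38).

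Among peroxisomal genes Ehhadh, the bifunctional enzyme induced by PPAR ligands in rodent liver, had log2 signals of 7.80, 8.25, 7.87, 7.52 and 7.86 in L-MI, against 8.35, 8.64 and 8.87 in sham. It fell without overlap, with a log2 fold change of -0.75 (adjusted p = 0.000927, SE 0.14). Hsd17b4, the other bifunctional enzyme, was at -0.21 (adjusted p = 0.0305, SE 0.06), Pex11a, a factor of peroxisome division, at -0.30 (adjusted p = 0.00258, SE 0.06), and the oxidase Acox3 at -0.12 (adjusted p = 0.196, SE 0.05), all as log2 fold changes and none called.

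In the triglyceride store Dgat2, Plin5 and Lipe fell. Dgat2, which completes triglyceride synthesis, had log2 signals of 7.66, 8.04, 7.44, 7.63 and 8.26 in L-MI, against 8.49, 8.74 and 8.79 in sham. The groups were apart, with a spread of 0.33 in L-MI and 0.11 in sham (SD, n = 5 and 6), and the log2 fold change was -0.91 (adjusted p = 0.00424, SE 0.20). Plin5, the droplet protein of oxidative tissues, had 8.25, 8.33, 8.01, 8.16 and 8.16 in L-MI, against 8.78, 8.91 and 9.07 in sham, as log2 signals. With no overlap, it fell, with a log2 fold change of -0.74 (adjusted p = 4.41e-05, SE 0.10). Plin2, a more general droplet protein, had 10.98, 10.89, 10.98, 11.02 and 10.99 in L-MI, against 10.94, 11.01 and 11.27 in sham, which overlapped, and a log2 fold change of -0.07 (SE 0.07, 95% interval -0.21 to 0.07). Of the lipases, Lipe had log2 signals of 8.91, 8.84, 8.71, 8.79 and 8.79 in L-MI, against 9.09, 9.26 and 9.36 in sham, and fell without overlap, with a log2 fold change of -0.44 (adjusted p = 0.000103, SE 0.07). Pnpla2, which starts triglyceride breakdown, was at -0.24 (adjusted p = 0.0438, SE 0.08) on this scale and was not called.

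The uncoupling proteins, carriers of the inner mitochondrial membrane, moved in opposite directions. Ucp3, the muscle form, had log2 signals of 7.71, 7.47, 7.44, 7.63 and 7.20 in L-MI, against 7.76, 8.08 and 8.50 in sham, without overlap. Its log2 fold change was -0.63 (adjusted p = 0.0201, SE 0.17), and the call was lost without sham replicate 3 (-0.56, adjusted p = 0.0531) or 6 (-0.57, adjusted p = 0.0517) and without L-MI replicate 5 (-0.56, adjusted p = 0.0666). Ucp2, the form also abundant in immune cells, had log2 signals of 12.21, 11.93, 12.03, 12.18 and 12.14 in L-MI, against 11.30, 11.67 and 11.94 in sham. The groups overlapped in 1 array, L-MI replicate 2 at 11.93, and sham was spread widely. The log2 fold change was 0.44 (adjusted p = 0.0114, SE 0.11), a fold of 1.36, and without sham replicate 5 it was 0.37 and under the threshold. Macrophage markers moved with Ucp2, since 9 of 9 rose in L-MI, and their part in this rise was not tested.

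The windows of this pair are shown because the genes are neighbours, start to start 23463 bases apart on chromosome 1 and on the same strand, and moved in opposite directions. Capitals again mark AGGTCA, which occurs 155 and 50 bases before the start of Ucp3 (chr1:164227660-164227959, plus strand) and on neither strand in the window of Ucp2 (chr1:164251123-164251422, plus strand). Only 15.7% of all windows hold the motif, so that its absence is common. A link between motif and direction was not tested, nor was the difference between the 2 genes.
Ucp3: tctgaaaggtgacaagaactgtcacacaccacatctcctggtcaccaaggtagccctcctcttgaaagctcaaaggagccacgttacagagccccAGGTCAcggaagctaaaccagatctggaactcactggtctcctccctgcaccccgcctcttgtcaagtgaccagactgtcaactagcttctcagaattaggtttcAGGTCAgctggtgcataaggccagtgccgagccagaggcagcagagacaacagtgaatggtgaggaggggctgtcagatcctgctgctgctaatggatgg
Ucp2: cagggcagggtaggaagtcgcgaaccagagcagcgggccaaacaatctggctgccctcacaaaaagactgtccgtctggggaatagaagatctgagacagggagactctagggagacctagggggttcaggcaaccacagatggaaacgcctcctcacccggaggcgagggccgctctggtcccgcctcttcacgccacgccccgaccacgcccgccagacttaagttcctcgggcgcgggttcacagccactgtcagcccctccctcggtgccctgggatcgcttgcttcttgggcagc

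**Figure D2:**
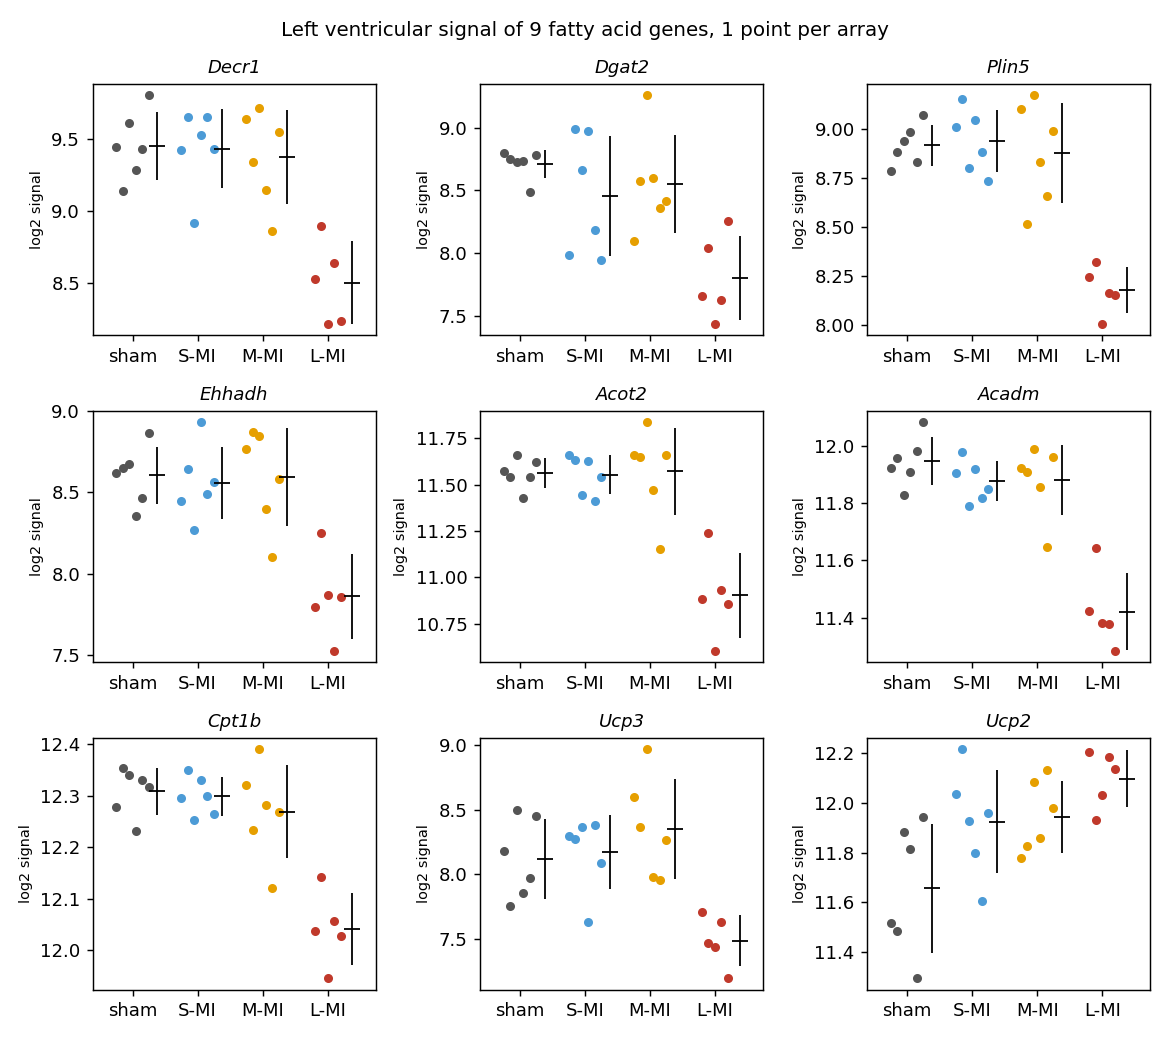
Log2 signal (y axis) of 9 genes in the sham, S-MI, M-MI and L-MI arrays of LV, with 1 point per array and the group mean ± SD beside it. Decr1, Dgat2, Plin5, Ehhadh, Acot2, Acadm, Cpt1b and Ucp3 are lowest in L-MI, without overlap with sham, and Ucp2 is highest there, with sham arrays between 11.30 and 11.94.

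The L-MI arrays were not equally shifted. The mean deviation of the 46 genes from their LV means was -0.25, -0.12, -0.31, -0.32 and -0.29 log2 units in L-MI replicates 1 to 5, against 0.01 to 0.15 in S-MI, -0.11 to 0.20 in M-MI and 0.05 to 0.15 in sham. L-MI replicate 2 was the highest L-MI array for 31 of the 46 genes and for 17 of the 22 that fell, and without it 24 fell, as did 1.55% of all clusters, against 1.14% with it. M-MI replicate 5 was the lowest M-MI array for 27 genes, and its mean of -0.11 was close to that of L-MI replicate 2. L-MI replicate 1, the array with the deviating description, lay with the other L-MI arrays, and without it 21 genes fell (1.05% of all clusters).

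Cell type markers were read beside these values, in the LV fit of L-MI against sham that called 1.14% of all clusters lower and 2.08% higher. The mean deviation of the 9 macrophage markers was 0.20 in L-MI replicate 2 and 0.48 to 0.86 in the other L-MI arrays, against -0.39 to -0.15 in sham. Of the 16 cardiomyocyte markers 0 were called and 7 were lower at an unadjusted limma p of at most 0.05, a level that 11.7% of all clusters reached. Their median log2 fold change was -0.07, and their mean deviation lay between -0.10 and -0.01 in L-MI, against 0.01 to 0.04 in sham. Of 9 endothelial markers 0 were called (median -0.10), of 9 fibroblast markers 5 rose (median 0.45), of 4 smooth muscle markers 2 rose, of 8 adipocyte markers 1 (Car3) rose, and of 3 erythroid markers 1 (Slc4a1) fell. The part of these shifts in the fall of the fatty acid genes was not tested.

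**Figure D3:**
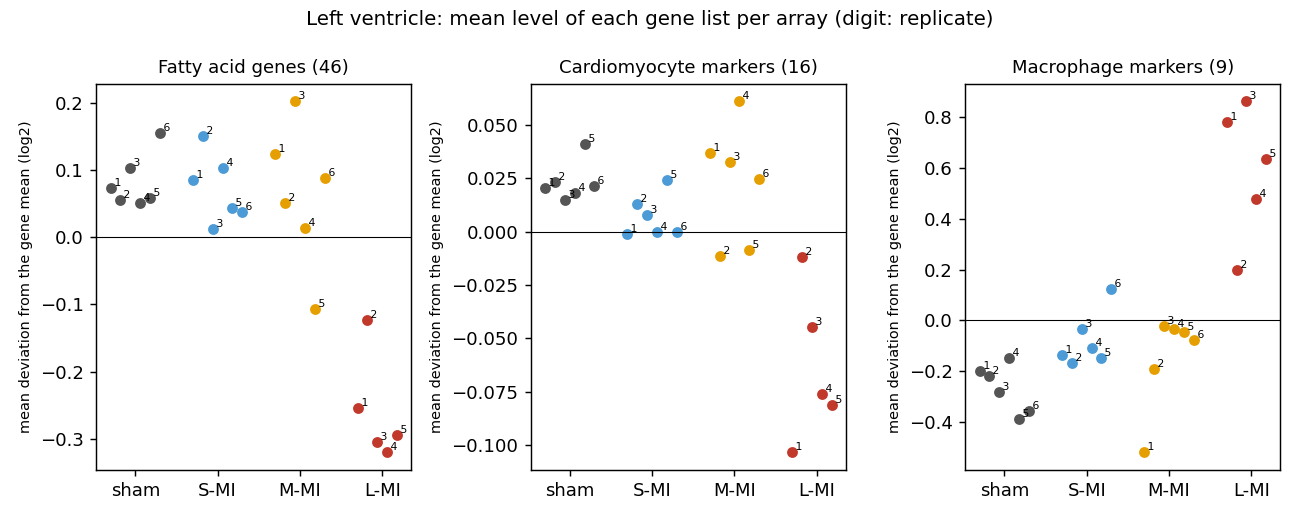
Mean deviation from the gene mean (log2, y axis) in each LV array for the 46 fatty acid genes, 16 cardiomyocyte markers and 9 macrophage markers, with 1 point per array and its replicate number. L-MI replicate 2 lies at -0.12, -0.01 and 0.20, nearest to the other groups in all 3 panels, whose y axes differ in scale.

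In M-MI and in S-MI no fatty acid gene passed. In each comparison with sham 0 of 46 genes were called, as were 0% of all clusters, and the smallest adjusted p of the genes was 0.689 in M-MI and 0.702 in S-MI (limma). The median log2 fold change was -0.04 in M-MI and -0.02 in S-MI. Values were negative for 37 genes and positive for 9 in M-MI, where 51.3% of all clusters were negative. In S-MI they were negative for 31 genes and positive for 15, where 48.9% of all clusters were negative. This small shift was not tested. At an unadjusted limma p of at most 0.05 there were 3 genes in M-MI (7.03% of all clusters) and 3 in S-MI (6.33%). Ucp2 was among them in both. The comparisons share the 6 sham arrays, in which Ucp2 ran from 11.30 to 11.94. Its log2 signals were 11.61, 11.94 and 12.21 in S-MI and 11.78, 11.92 and 12.13 in M-MI (lowest, median and highest), and the log2 fold changes were 0.27 (SE 0.11, limma unadjusted p = 0.0188) and 0.29 (SE 0.11, limma unadjusted p = 0.0124). Both groups overlapped with sham and with L-MI. The other genes were Acsl4 (0.14, SE 0.06) and Acsl3 (0.16, SE 0.07) in S-MI, and Hsd17b4 (-0.13, SE 0.06) and Pex11a (0.13, SE 0.06) in M-MI. For Acadm the 95% interval of the log2 fold change was -0.20 to 0.06 in S-MI and -0.19 to 0.06 in M-MI, and for Decr1 it was -0.33 to 0.29 and -0.39 to 0.23.

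Set against the other infarct groups, which share the rule of dissection, L-MI gave the same direction. In L-MI against M-MI 19 of the 46 genes fell (0.695% of all clusters fell), and in L-MI against S-MI 17 fell (0.911%), with 0 higher in either (1.99% and 1.57% of all clusters). Without the fold threshold 33 and 34 of the genes passed as lower, against 3.03% and 4.12% of all clusters. The medians of the log2 fold changes were -0.36 and -0.33. Plin5 had log2 signals of 8.25, 8.33, 8.01, 8.16 and 8.16 in L-MI, against 8.52, 8.91 and 9.17 in M-MI and 8.73, 8.95 and 9.15 in S-MI, and log2 fold changes of -0.70 (adjusted p = 8.90e-05) and -0.76 (adjusted p = 6.15e-05). Decr1 was at -0.87 (adjusted p = 0.000980) and -0.93 (adjusted p = 0.000681) and Ehhadh at -0.74 (adjusted p = 0.00124) and -0.70 (adjusted p = 0.00248) on this scale. Pex11a, Hadha and Etfdh were called against M-MI, at -0.42, -0.40 and -0.39, but not against S-MI, at -0.26, -0.36 and -0.32, and Eci2 was called against S-MI, at -0.39, but not against M-MI, at -0.31. Ucp2 was not called in either, at 0.15 (95% interval -0.08 to 0.38) and 0.17 (-0.06 to 0.40). The 3 comparisons share the L-MI arrays.

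In PBMCs of rats with L-MI the fatty acid genes did not pass. Where a call needed 1.2-fold and an unadjusted p at or under 0.05, 0 of 46 genes were called, against 0.924% of all clusters, and the median log2 fold change was 0.01. At the unadjusted limma p without a fold 1 gene passed, against 3.77% of all clusters. This was Cpt1a, with log2 signals of 9.60, 9.44, 9.48, 9.67 and 9.69 in L-MI, against 9.14, 9.27 and 9.80 (lowest, median and highest) in sham. Sham replicate 6 was above all L-MI arrays, and the other sham arrays were below them. The log2 fold change was 0.25 (SE 0.11, 2-sided exact permutation p = 0.0758, 462 splits, limma adjusted p = 0.9997). It reached the call at 0.34 without sham replicate 6, at 0.28 without L-MI replicate 2 and at 0.27 without L-MI replicate 3. Plin2 (0.27) also reached it without L-MI replicate 2, and Crat (0.27) without L-MI replicate 4.

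The next 5 genes by p had overlapping groups. Slc25a20 had log2 signals of 8.55, 8.45, 8.36, 8.06 and 8.25 in PBMCs of L-MI, against 8.09, 8.19 and 8.36 in sham, and a difference of 0.14 (2-sided exact permutation p = 0.132). Ucp2 had 12.74, 12.78, 12.56, 12.35 and 12.72 in L-MI, against 12.38, 12.49 and 12.61 in sham, and a difference of 0.13 (exact permutation p = 0.145). Acsl1 differed by 0.13 (exact permutation p = 0.117), Acsl3 by -0.16 (exact permutation p = 0.184) and Hsd17b4 by 0.17 (exact permutation p = 0.223). These are 6 of the 46 genes compared, and after Benjamini-Hochberg adjustment over all clusters the smallest limma p of the 46 was 0.9997. Some genes that fell in LV, among them Acacb, Dgat2, Plin5 and Ucp3, had mean log2 signals in sham PBMCs of 5.81, 6.44, 6.91 and 6.94. These lie below the array medians, and no detection call is given. Whether a fall of such genes could be seen in PBMCs is not known, which also limits the test between tissues.

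The difference between the tissues was tested as an interaction over the 22 L-MI and sham arrays. For 24 of the 46 genes the L-MI effect was lower in LV than in PBMCs and for 0 higher, at a limma adjusted p of at most 0.05, against 1.16% and 1.39% of all clusters. The median difference of the effects was -0.37. Plin5 had log2 fold changes of -0.74 in LV and -0.01 in PBMCs, a difference of -0.72 (SE 0.09, adjusted p = 5.37e-05). Acsl1 had -0.56 in LV and 0.13 in PBMCs, a difference of -0.70 (SE 0.11, adjusted p = 0.000513). For Cpt1a the values were -0.38 in LV and 0.25 in PBMCs, a difference of -0.63 (SE 0.15, adjusted p = 0.0213), which was not called without the 4 LV arrays that stood apart (-0.60, adjusted p = 0.0548). Ucp2 had 0.44 in LV and 0.13 in PBMCs, and the difference of 0.31 did not pass (95% interval 0.01 to 0.61, adjusted p = 0.343). The model takes the tissues as independent, since the labels do not say which arrays share a rat.

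**Figure D4:**
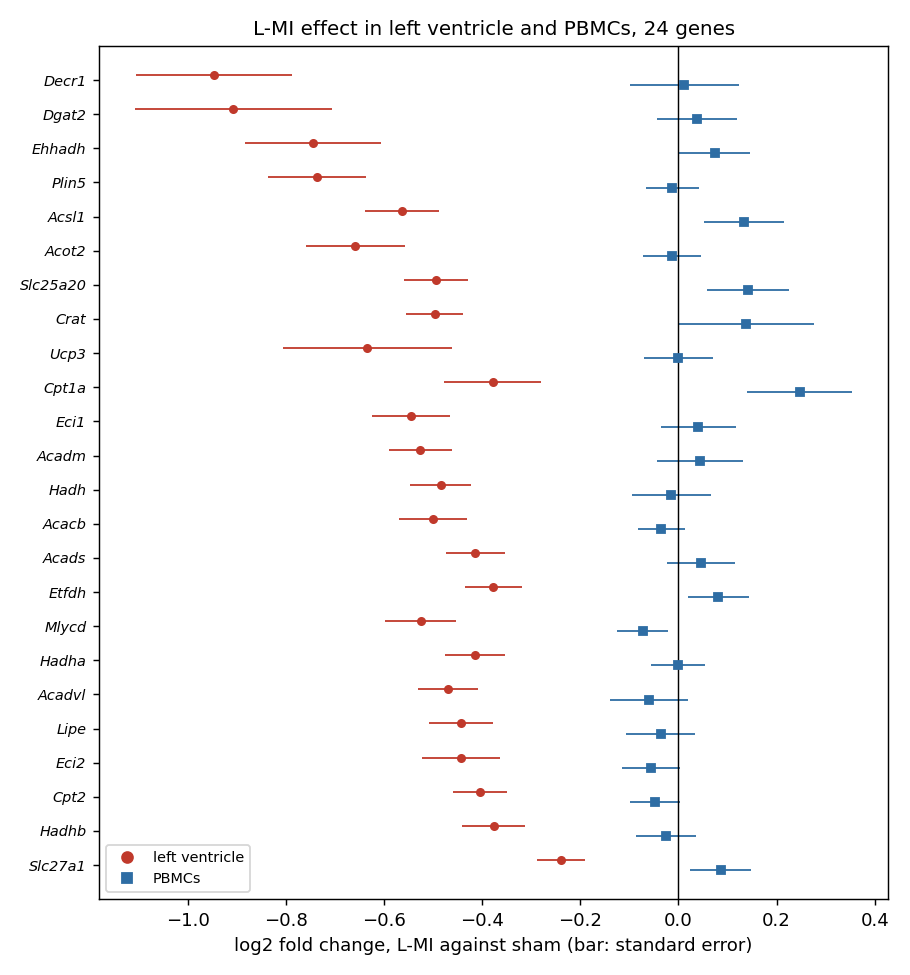
Log2 fold change, L-MI against sham, in LV (circles) and PBMCs (squares) for the 24 genes whose effect differed between the tissues, with bars of 1 standard error. All LV values lie between -0.95 and -0.24 and all PBMC values between -0.07 and 0.25.

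Other genes of the pathway, listed by function and apart from the 48, were read in the same fits. In LV of L-MI against sham 1.14% of all clusters fell and 2.08% rose. Of 25 further enzymes of beta-oxidation 5 fell and 0 rose in LV of L-MI (median log2 fold change -0.18), among them Acad10 (-0.52, SE 0.08, adjusted p = 9.09e-05), Echdc2 (-0.44, SE 0.07, adjusted p = 0.000252), Ech1, an auxiliary isomerase (-0.54, SE 0.09, adjusted p = 0.000263), and Acot7 (-0.40, SE 0.07, adjusted p = 0.000337). Of 23 further genes of entry, binding and carnitine handling 2 fell and 1 rose (median -0.10). Acsf2, an acyl-CoA synthetase, fell by 0.53 on the log2 scale (adjusted p = 5.16e-06) and Gpihbp1, which anchors the lipase Lpl in capillaries, by 0.91 (adjusted p = 0.000832), whereas the lipoprotein receptor gene Lrp1 rose by 0.67 (adjusted p = 1.45e-05).

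Of 19 further triglyceride and droplet genes 5 fell and 0 rose (median -0.06). Dgat1, the other enzyme of the last step of triglyceride synthesis, fell by 0.67 on the log2 scale (adjusted p = 3.67e-05), Gpam, which starts glycerolipid synthesis, by 0.61 (adjusted p = 4.37e-05), Fitm1 by 0.40 and Lpin1 by 0.46. Of 17 genes of ketone bodies, PPAR targets and regulators of transcription, the PPARs among them, 3 fell and 0 rose (median -0.18). These were Pdk4, a kinase that blocks pyruvate dehydrogenase (-0.92, SE 0.20, adjusted p = 0.00410), the receptor gene Pparg (-0.48, SE 0.09, adjusted p = 0.00138) and Cyp4b1 (-0.40, SE 0.09, adjusted p = 0.00466). In PBMCs 0 genes of these 4 lists were called, where 0.924% of all clusters were called.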

How the data were processed

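RNA of LV (23 arrays) and PBMCs (11 arrays) was measured with 1 array per sample. The authors deposited log2 values for 29214 transcript clusters, after RMA in Partek (versions not given in the sources used here). RMA corrects background, equalizes array distributions by quantiles and summarizes probes, which can compress folds of dim genes. That the logarithm is to base 2 was inferred from the range of values. The array medians differ by tissue, and each tissue was read within its own arrays. Symbols come from the platform annotation, and 323 clusters with several symbols and 13581 without a symbol were not named.

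Models were fitted to all clusters in R 4.3.3 with limma 3.58.1 (lmFit, eBayes, Benjamini-Hochberg adjustment over all clusters), with a mean per group and no covariate. The LV model held 23 arrays, and calls needed 1.3-fold with an adjusted p at or under 0.05. The PBMC model held 11 arrays, and calls needed 1.2-fold with an unadjusted p at or under 0.05. The interaction model held 22 arrays, and calls needed an adjusted p at or under 0.05. For single PBMC genes exact permutation of the 462 splits was added. All adjusted p values are from limma. Each fit was first tested on simulated data.

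Values were given for genes called in LV of L-MI (the 16 with the smallest p and Ucp2), the 6 smallest p in PBMCs, the 3 smallest in M-MI and in S-MI, and isoforms of the same role. Decr1, Dgat2, Ehhadh, Eci2 and the other genes of the 46 outside this rule were added after their values had been seen, to account for every gene. The genes, the other pathway lists and the marker lists were chosen with earlier results of these data known. Alternatives were other variance models, array weights, other scalings, filters and thresholds, a mean over the clusters of a symbol, the replicate number as a block, the omission of each array in turn, and, chosen after seeing the data, the omission of the 4 LV arrays that stood apart. Figures were drawn with Python 3.11.15 and matplotlib 3.10.9. Replicates of a group, called biological in the labels, differed by 0.199 to 0.349 log2 units (root mean square).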

Additional observations from a re-analysis of the deposited data

Results flagged for a closer look

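For 24 genes the L-MI effect differed between LV and PBMCs in the interaction test (limma adjusted p at or under 0.05), each lower in LV. In the synthetases, thioesterases and carnitine genes the differences of log2 fold changes, LV minus PBMCs, were -0.6964 for Acsl1, -0.6459 for Acot2, -0.6362 for Slc25a20, -0.6345 for Crat, -0.6266 for Cpt1a, -0.4653 for Acacb, -0.4525 for Mlycd and -0.3578 for Cpt2. In the spiral and its auxiliary enzymes they were -0.9599 for Decr1, -0.5855 for Eci1, -0.5694 for Acadm, -0.4706 for Hadh, -0.4611 for Acads, -0.4137 for Hadha, -0.4113 for Acadvl, -0.3883 for Eci2 and -0.3507 for Hadhb. Dgat2 had -0.9452, Ehhadh -0.8193, Plin5 -0.7239, Ucp3 -0.6337, Etfdh -0.4586, Lipe -0.4061 and the transporter Slc27a1 -0.3257.

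Some of these calls change when 1 array is left out. Slc27a1 lost it without LV L-MI replicate 1, 3, 4 or 5, PBMC sham replicate 1, 2 or 5 or PBMC L-MI replicate 2 or 5 (-0.33 to -0.30, limma adjusted p 0.05003 to 0.0617). Ucp3 lost it without LV sham replicate 1, 3 or 6, LV L-MI replicate 3 or 5, PBMC sham replicate 1, 2, 3 or 4 or PBMC L-MI replicate 2, 3, 4 or 5 (-0.65 to -0.56, limma adjusted p 0.0541 to 0.0842). Hadhb lost it without LV sham replicate 2, LV L-MI replicate 1, 3 or 5 or PBMC L-MI replicate 2 (-0.34 to -0.31), and Crat without LV L-MI replicate 3 or 5, PBMC sham replicate 2 or PBMC L-MI replicate 5 (-0.62 to -0.60). Acadvl lost it without LV L-MI replicate 3 or 4 or PBMC L-MI replicate 3 (-0.39 to -0.38), and Eci2 without LV L-MI replicate 3 (-0.35). Without the 4 LV arrays that stood apart, Slc27a1 (-0.28, limma adjusted p = 0.0681), Crat (-0.64, 0.0593), Acadvl (-0.41, 0.0593), Cpt1a (-0.60, 0.0548) and Ucp3 (-0.62, 0.0561) were not called. With the replicate block the same held for Cpt2 (-0.36, limma adjusted p = 0.0644), Slc27a1 (-0.33, 0.0636) and Ucp3 (-0.63, 0.0895).

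In 20 of 276 sets of arrays, each 1 gene in 1 group, an array stood far from the others, which is 7.25%, where chance gives about 1 in 20. The measure is the gap from that array to its nearest neighbour, divided by the range of the group. In LV of L-MI it was 0.851 for Etfdh (replicate 2, highest), 0.840 for Acsl4 (replicate 1, lowest), 0.734 for Crot and 0.718 for Acot13 (both replicate 4, lowest). In S-MI it was 0.741 for Cd36 (replicate 4, lowest) and 0.683 for Decr1 (replicate 3, lowest). In LV of sham it was 0.781 for Dgat2 (replicate 5, lowest), and replicate 6 was highest for Slc27a1 (0.777) and Plin2 (0.661). In PBMCs of L-MI it was 0.798 for Pnpla2 (replicate 4, lowest), 0.771 for Lipe (replicate 2, highest) and 0.741 for Ucp3 (replicate 5, highest). In PBMCs of sham it was 0.788 for Lipe (replicate 1, lowest) and 0.673 for Acacb (replicate 5, highest). Replicate 3 of that group was lowest for Acsl1 (0.744) and highest for Decr1 (0.743) and Eci2 (0.656), and replicate 6 was lowest for Etfb (0.764) and Eci1 (0.659) and highest for Cpt1a (0.693).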

How the results depend on the processing

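In LV of L-MI against sham the count of fatty acid genes called was 36 (35 lower, 1 higher) without a fold threshold and 6 (6 lower, 0 higher) at 1.5-fold, where 0.284% of all clusters fell and 0.921% rose. With each array centred on its median, 25 fell and 1 rose, and over all clusters 524 rose and 431 fell, against 608 and 333. With all arrays 1.14% of all clusters fell and 2.08% rose in this comparison. Leaving out each array in turn gave 21 to 26 genes called, 20 to 25 lower and 0 to 1 higher, with medians of -0.42 to -0.34. The 0 stands for the omission of sham replicate 5. Against M-MI 33 fell without a fold threshold and 6 at 1.5-fold (0.168% of all clusters), and against S-MI 34 and 7 (0.219%). In M-MI and S-MI against sham the count was 0 in all settings run. In PBMCs, where 0.924% of all clusters were called with all arrays, 1 gene, Cpt1a, was called with array weights and 1 with the replicate block. Without a fold threshold 1 was called (3.77% of all clusters), and 0 to 2 when an array was left out. In the interaction 18 to 25 genes passed when an array was left out, and 19 without the 4 LV arrays. With all arrays 1.16% of all clusters passed there as lower and 1.39% as higher. Shares of all clusters are not given here for fits with arrays left out, array weights or the replicate block. Acsl6, not called, turned to 0.05 with array weights and 0.0629 without the 4 arrays, and ranged from -0.085 to 0.0777 when an array was left out. Crot, not called, turned to -0.0055 with median centring. The cause was not tested. Whether replicate numbers pair the samples was not settled. Deviations of same-numbered LV and PBMC arrays of 1 condition correlated above 0.1 in 2 of 11 pairs (median 0.01). Of 50 differently numbered pairs 0 did so (median -0.006). Within a tissue same-numbered arrays come from different groups, hence from different rats. There the count was 2 of 33 pairs in LV and 1 of 5 in PBMCs, against 21 of 165 and 4 of 25 differently numbered pairs. With the replicate block 22 genes were called in LV of L-MI against sham, 21 lower and 1 higher, and 21 in the interaction. The files give no background or detection value, so how far dim genes are measured is not known.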

Other observations

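Genes that mark other cells were read in L-MI against sham, where 1.14% of all clusters were called lower and 2.08% higher in LV. In LV of L-MI, Postn, a matrix gene of activated fibroblasts, was 3.0003 higher on the log2 scale than in sham, Col1a1 1.1964 higher and Col3a1 0.57 higher. The macrophage genes Cd68, Mrc1 and Csf1r were 0.90, 0.84 and 0.75 higher, and the smooth muscle genes Tagln and Cnn1 were 0.69 and 0.43 higher. All of these were called by limma. Of 7 T cell markers 2, Cd4 (0.76) and Cd28 (0.45), were higher, and of 5 monocyte markers 4, which overlap with the macrophage list. None of the 3 B cell, 5 NK cell, 6 neutrophil, 3 platelet and 2 brown adipocyte markers was called in LV of L-MI against sham. In PBMCs of L-MI 1 of the 5 NK cell markers was higher, and no marker of the other lists was called, where 0.924% of all clusters were called.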
